A study of Mus musculus with 9 samples.

Results

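The genes described are 9 genes of late neutrophil maturation: S100a8 and S100a9, whose products are alarmins, and Ltf, Camp, Ngp, Lcn2, Retnlg, Mmp8 and Mmp9, most of whose products are stored in neutrophil granules. They were chosen by name and not by a rule on measured values, though with earlier results of these data known. They are 9 of the 24060 named rows of the count table. All 9 passed the filter on low counts and were tested.

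Neutrophil granules are filled in the order in which their genes are transcribed. Primary granule genes such as Mpo are switched on in promyelocytes, the genes of the secondary (specific) granules in myelocytes and metamyelocytes, and those of the tertiary (gelatinase) granules later still. Among the 9 genes, Ltf encodes lactoferrin, which binds iron, Camp the precursor of the antimicrobial peptide cathelicidin, Ngp a neutrophilic granule protein related to it, and Lcn2 lipocalin 2, which takes up bacterial siderophores. S100a8 and S100a9 encode the subunits of calprotectin, an abundant cytosolic complex of neutrophils and monocytes that binds calcium and zinc and is released as an alarmin. Mmp8 is the neutrophil collagenase, Mmp9 is gelatinase B, and Retnlg encodes a resistin-like secreted protein of mature neutrophils. In the bone marrow the transcription factors C/EBP epsilon, PU.1 and Gfi1 act on genes of this kind.

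RNA was sequenced from sorted LSKs (Lin- Sca1+ Kit+ cells), the bone marrow fraction that holds stem cells and multipotent progenitors and from which cells with markers of a mature lineage are gated out. Donor marrow on a C57BL/6 background was transplanted into lethally irradiated CD45.1 recipients, which were fed doxycycline for 3 months, and the CD45.2 donor cells were sorted. The design text names the doxycycline feed for all recipients. The groups were control marrow (3 libraries), marrow with the NUP98-HOXD13 fusion, NHD13, under the Vav promoter, which is active in blood cells (2 libraries), and NHD13/MSI2 marrow (4 libraries), which in addition carried MSI2 behind a tetracycline-responsive promoter at the Col1A1 locus and the rtTA activator at ROSA26. The labels give an age of 4 months and the cell type LSK for every library. They do not say whether the libraries of a group came from separate mice, so p-values measure the spread between these libraries. The library name of control replicate 1 carries the word Bulk and those of control replicates 2 and 3 the words MPP and HSC. The other library names start with a number that differs between NHD13 and NHD13/MSI2, so that what this number stands for cannot be told apart from the genotype.

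Each library held between 19242153 and 23013493 counts on named genes, and 3 counts, the limit that a count of 0 allows, were worth 0.130 to 0.156 CPM (counts scaled to the library size) before scaling factors. Intervals and floors cover counting error only. The LSK markers Kit (908 to 2254 CPM) and Ly6a, which encodes Sca1 (48.3 to 375 CPM), were detected in every library. Msi2 was at 88.0, 77.1 and 82.8 CPM in replicates 1 to 3 with the label NHD13/MSI2, below every control and NHD13 library. In replicate 4 it was at 241 CPM. It lay between 223 and 316 CPM in control and at 111 and 139 CPM in NHD13. Msi2 counts thus showed no rise with the MSI2 label, and the directions below rest on the labels. Whether reads of the introduced MSI2 were counted on the Msi2 row is not given in the sources used here. Xist reached 866 and 888 CPM in control replicates 3 and 1 and stayed at or under 2.33 CPM in the other 7 libraries, in which Y-linked genes were detected, so that control replicate 2 is the one control library that shares this feature with NHD13 and NHD13/MSI2. The Y-linked Eif2s3y was at 122 to 180 CPM in all 7. Ddx3y was uneven, at 229 CPM in control replicate 2, 172 and 250 CPM in NHD13 and 3.83 to 17.6 CPM in NHD13/MSI2. Replicate 4 of NHD13/MSI2 stood apart from its group, with a chi-square per gene of 376 to 403 against the other 3 libraries, which differed by at most 30.8 among themselves.

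The names in the deposited table had slipped by 2 rows after the March genes, and 6 of the 9 genes (S100a8, S100a9, Ngp, Retnlg, Mmp8 and Mmp9) lie in that stretch. After the names were moved down by 2 rows, 26 of 27 genes known to be abundant in dividing blood cells were at a mean of at least 100 CPM, against 4 of 27 with no move and 10 of 27 with a move of 3 rows. Camp, Lcn2 and Ltf stand before that stretch and needed no move. The values of the 6 other genes rest on this alignment, and their values under the names as deposited belong to other rows.

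The genes lie on 4 chromosomes of GRCm38 (GENCODE M21). S100a8 and S100a9 are neighbours on chromosome 3, at chr3:90668978-90670035 on the plus strand and chr3:90692632-90695721 on the minus strand, with 22.6 kb between them. Camp, Ngp and Ltf share a region of chromosome 9, at chr9:109847379-109849617 (minus strand), chr9:110419747-110423012 (plus strand) and chr9:111019271-111042767 (plus strand), with 570 kb between Camp and Ngp and 596 kb between Ngp and Ltf. Mmp8 lies elsewhere on chromosome 9, Lcn2 and Mmp9 lie on chromosome 2, and Retnlg on chromosome 16. Counts were summed over whole genes, so exons and isoforms were not told apart.

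The 250 bases before the transcription start were read from RefSeq (GRCm38.p6) for 8 of the 9 genes. Mmp9 had no entry. The windows of Ngp and Ltf, the secondary granule genes with the lowest p-values against control, and of the neighbours S100a8 and S100a9 are shown 5′ to 3′ on the gene's own strand. Capitals mark matches to a C/EBP-type motif (TTGCNNAA, or TTNNGCAA for the other strand) or a PU.1-type motif (GAGGAAG, or CTTCCTC for the other strand). They are chr9:110419558-110419807 (plus) for Ngp, chr9:111019042-111019291 (plus) for Ltf, chr3:90668821-90669070 (plus) for S100a8 and chr3:90695722-90695971 (minus) for S100a9.
Ngp: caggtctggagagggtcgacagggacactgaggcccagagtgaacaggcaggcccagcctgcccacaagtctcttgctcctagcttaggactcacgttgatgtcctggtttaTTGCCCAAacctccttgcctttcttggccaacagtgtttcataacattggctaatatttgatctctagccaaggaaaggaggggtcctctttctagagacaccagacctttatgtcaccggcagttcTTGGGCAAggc
Ltf: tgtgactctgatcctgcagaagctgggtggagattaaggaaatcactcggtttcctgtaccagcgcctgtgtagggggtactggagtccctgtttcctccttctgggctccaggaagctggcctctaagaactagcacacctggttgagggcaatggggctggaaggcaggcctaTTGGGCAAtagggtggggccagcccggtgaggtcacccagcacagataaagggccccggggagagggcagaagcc
S100a8: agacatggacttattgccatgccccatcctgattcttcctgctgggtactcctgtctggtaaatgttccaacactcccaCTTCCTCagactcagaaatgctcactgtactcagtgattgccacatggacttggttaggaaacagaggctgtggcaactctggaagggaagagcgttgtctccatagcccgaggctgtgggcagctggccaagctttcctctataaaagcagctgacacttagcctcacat
S100a9: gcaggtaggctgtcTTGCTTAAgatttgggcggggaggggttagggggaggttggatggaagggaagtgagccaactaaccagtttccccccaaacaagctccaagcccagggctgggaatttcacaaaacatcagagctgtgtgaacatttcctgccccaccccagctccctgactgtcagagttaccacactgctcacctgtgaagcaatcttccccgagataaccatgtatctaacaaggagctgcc
The Ngp window held the C/EBP-type letters at 138 and 11 bases before the start, the Ltf window at 75 and the S100a9 window at 236. These are RefSeq starts, which need not match those of GENCODE M21. The windows of Ngp, Ltf, S100a8, Camp and Lcn2 run past the GENCODE start. The Ngp match at 11 bases and the whole window of Lcn2 lie within the GENCODE gene. The S100a8 window held the PU.1-type letters at 171 bases before the start and no C/EBP-type match. The C/EBP-type motif was present in 6 of the 8 windows (S100a9, Ltf, Ngp, Lcn2, Retnlg and Mmp8), against 9.56% of 32851 RefSeq windows of that length, and the PU.1-type motif in 3 of the 8 (S100a8, Lcn2 and Mmp8), against 10.6%. Matches to the 2 motifs did not overlap. The window of Camp held neither motif. A match describes letters and is no evidence of binding.

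None of the 9 genes passed an adjusted p of 0.01 in edgeR in any of the 3 contrasts. For the 4 secondary granule genes and both alarmins, 6 of the 9 genes, every NHD13 and NHD13/MSI2 library was below every control library. Of all tested genes, 18.5% were lower without overlap in NHD13 over control and 20.4% in NHD13/MSI2 over control. No difference between NHD13/MSI2 and NHD13 was detectable. Summed over the 9 genes, the level was 1454 ± 898 CPM (SD, n = 3) in control, 337 ± 276 CPM (SD, n = 2) in NHD13 and 424 ± 188 CPM (SD, n = 4) in NHD13/MSI2. The lowest control library was at 913 CPM and the highest library of the other groups at 630 CPM. In bulk libraries fewer cells of a type and less RNA per cell cannot be told apart.

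**Figure D1:**
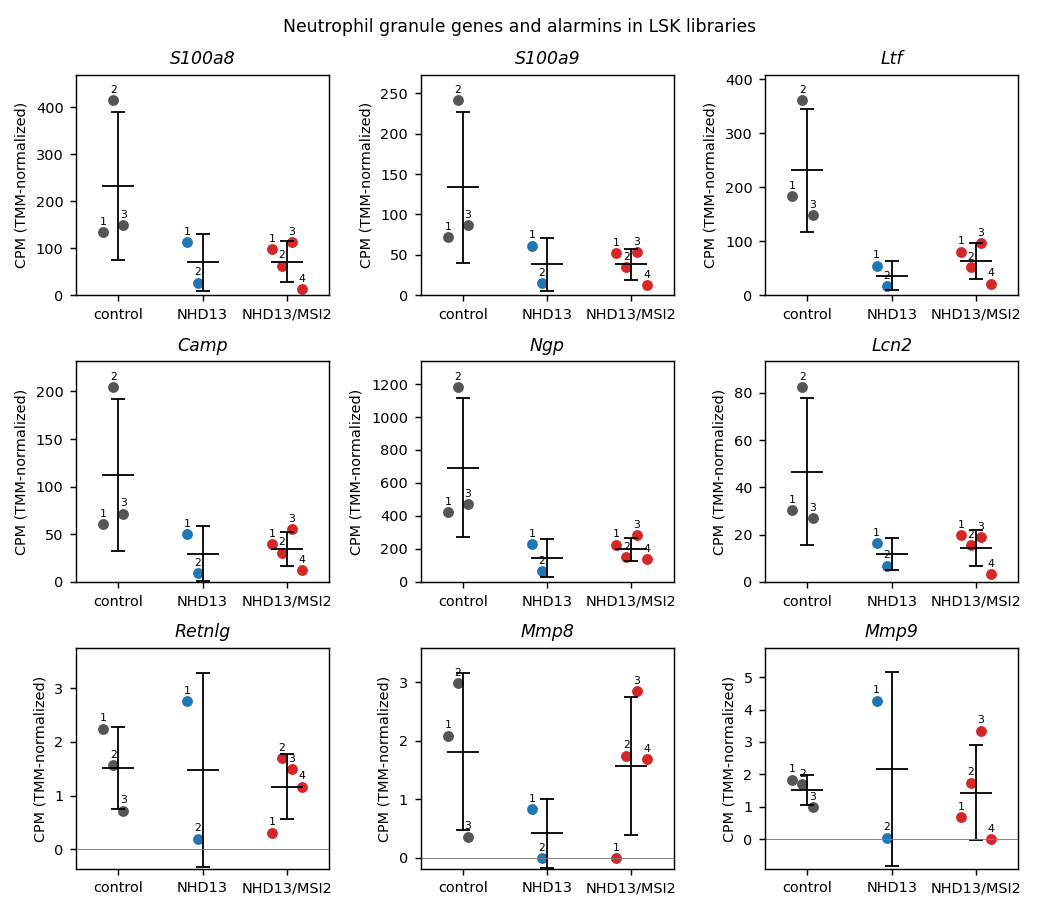
TMM-normalized CPM (y axis, linear) of each of the 9 genes in the 3 control (grey), 2 NHD13 (blue) and 4 NHD13/MSI2 (red) libraries, numbered by replicate. Bars give the mean ± SD of a group, which can reach below 0. In S100a8, S100a9, Ltf, Camp, Ngp and Lcn2 all control libraries lie above all others, and in Retnlg, Mmp8 and Mmp9 the groups overlap.

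Among the secondary granule genes, Ngp was the most abundant. Its levels were 425, 1181 and 473 CPM in control replicates 1 to 3, 228 and 66.2 CPM in NHD13 replicates 1 and 2, and 226, 148, 285 and 137 CPM in NHD13/MSI2 replicates 1 to 4. Control replicate 2 was 2.63 times the mean of the other controls, and the lowest control library was 1.49 times the highest library outside the group. The log2 fold change over control was −1.80 (standard error 0.49, adjusted p = 0.0288) in NHD13/MSI2 and −2.23 (standard error 0.64, adjusted p = 0.122) in NHD13, in the quasi-likelihood test of edgeR, adjusted over 13355 genes by Benjamini-Hochberg.

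Ltf was at 184, 361 and 148 CPM in the control libraries, 54.6 and 17.2 CPM in NHD13, and 80.7, 51.9, 96.7 and 21.0 CPM in NHD13/MSI2. It had the widest gap between the groups, with the lowest control library at 1.54 times the highest of the others. Its log2 fold change over control was −1.89 (standard error 0.55, edgeR adjusted p = 0.0378) in NHD13/MSI2 and −2.69 (standard error 0.73, edgeR adjusted p = 0.103) in NHD13, which are folds of 3.69 and 6.44 lower.

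Camp was at 60.8, 204 and 71.7 CPM in control, 50.3 and 9.29 CPM in NHD13, and 40.0, 30.8, 55.5 and 12.2 CPM in NHD13/MSI2. The groups did not overlap, yet the margin was narrow, since the lowest control library was at 60.8 CPM and the highest NHD13/MSI2 library at 55.5 CPM. The log2 fold changes over control were −1.69 (standard error 0.66) in NHD13/MSI2 and −1.91 (standard error 0.84) in NHD13, with edgeR adjusted p-values of 0.104 and 0.365.

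Lcn2 was the least abundant of these genes, at 30.2, 82.4 and 27.0 CPM in control, 16.4 and 6.87 CPM in NHD13, and 19.9, 15.7, 19.0 and 3.25 CPM in NHD13/MSI2. The lowest control library was 1.35 times the highest other library. Over control its log2 fold change was −1.68 (standard error 0.61, edgeR adjusted p = 0.0825) in NHD13/MSI2. In NHD13 it was 3.99-fold lower than in control (standard error 0.78 on the log2 scale, edgeR adjusted p = 0.288).

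The alarmin genes followed the same order. S100a8 was at 134, 415 and 150 CPM in control, 113 and 26.5 CPM in NHD13, and 97.3, 62.9, 112 and 12.3 CPM in NHD13/MSI2. S100a9 was at 72.2, 241 and 86.8 CPM in control, 61.3 and 15.2 CPM in NHD13, and 52.1, 34.8, 53.6 and 12.6 CPM in NHD13/MSI2. Control replicate 2 was the highest of the 9 libraries and the lowest values were in NHD13 replicate 2 and NHD13/MSI2 replicate 4. The log2 fold changes in NHD13/MSI2 over control were −1.71 (standard error 0.72) for S100a8 and −1.80 (standard error 0.62) for S100a9, with edgeR adjusted p-values of 0.135 and 0.0718. In NHD13 over control they were −1.74 (standard error 0.92) and −1.80 (standard error 0.79), with edgeR adjusted p-values of 0.493 and 0.363. The lowest control library was 1.19 times the highest other library for S100a8 and 1.18 times for S100a9.

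Retnlg and the gelatinase and collagenase genes had few counts, at most 93 in any library. Retnlg was counted 55, 33 and 18 times in control, 60 and 4 times in NHD13, and 6, 34, 33 and 18 times in NHD13/MSI2. Mmp8 had 51, 63 and 9 counts in control, 18 and 0 in NHD13, and 0, 35, 63 and 26 in NHD13/MSI2. Mmp9 had 45, 36 and 25 counts in control, 93 and 1 in NHD13, and 13, 35, 74 and 0 in NHD13/MSI2. The groups overlapped in all 3 genes, and NHD13 replicate 1 held the highest counts of Retnlg and Mmp9 while NHD13 replicate 2 held 4 or fewer. Over control the log2 fold changes of Retnlg, Mmp8 and Mmp9 were −0.37, −0.20 and −0.059 in NHD13/MSI2 and −0.028, −2.10 and 0.51 in NHD13, and the 95% intervals all included 0. The widest of these intervals, for Mmp8 in NHD13, ran from −5.95 to 1.75.

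**Figure D2:**
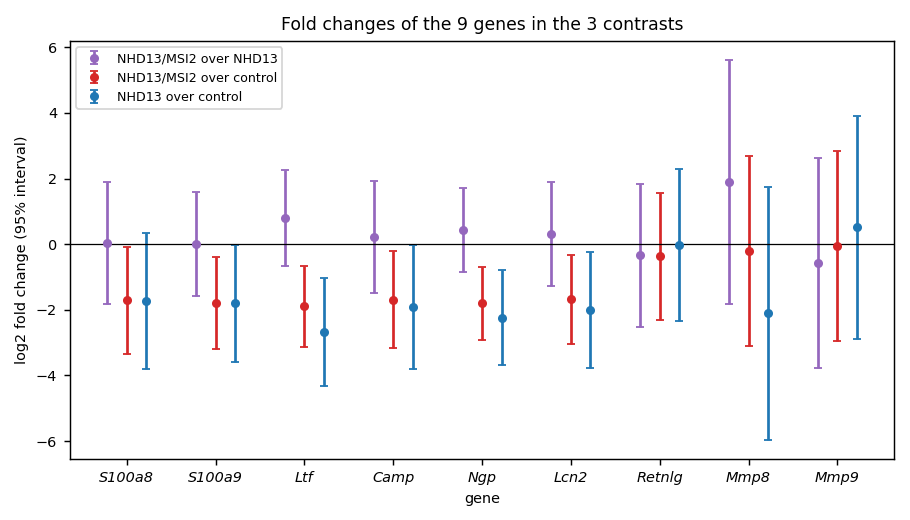
Log2 fold change (y axis) of the 9 genes (x axis) for NHD13/MSI2 over NHD13 (purple), NHD13/MSI2 over control (red) and NHD13 over control (blue), with 95% intervals from the edgeR fit before adjustment for multiple testing. The 6 abundant genes lie between −1.68 and −2.69 against control and between 0.0021 and 0.80 in NHD13/MSI2 over NHD13, where every interval includes 0.

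For NHD13/MSI2 over control, 0 of the 9 genes were lower at an adjusted p under 0.01 in edgeR, beside 6.55% of all tested genes lower and 4.49% higher by that rule. At an unadjusted p under 0.05, 6 of the 9 were lower and none higher, beside 18.3% and 14.5% of all genes. The libraries did not overlap, with NHD13/MSI2 lower, for the same 6 genes, and no gene was without overlap and higher, beside 20.4% and 15.3% of all genes. The median log2 fold change of the 9 was −1.69 and that of all tested genes −0.011. DESeq2 called 2 of the 9 lower and none higher at an adjusted p under 0.01, beside 10.6% and 7.53% of all genes. These were Ltf (DESeq2 adjusted p = 0.00283) and Ngp (DESeq2 adjusted p = 0.00147). They are also the 2 genes under an adjusted p of 0.05 in edgeR (12% of all genes lower and 8.54% higher). Their edgeR adjusted p over the alternatives reached 0.160 and 0.142 without control replicate 2. DESeq2 was not rerun with a library left out.

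For NHD13 over control, edgeR again called 0 of the 9, beside 0.21% of all genes called lower and 0.824% called higher. At an unadjusted p under 0.05, 5 were lower (S100a9, Ltf, Camp, Ngp and Lcn2), and none higher, beside 5.83% and 7.66% of all genes. In 6 genes NHD13 was lower than control without overlap and in none higher, beside 18.5% and 18.9% of all genes. At an edgeR adjusted p under 0.05 none of the 9 was called (0.786% of all genes lower and 2.1% higher). The median over the 9 genes was −1.91 and over all genes 0.017. With DESeq2, 2 of the 9 were lower and none higher, beside 1.54% and 2.58% of all genes. They were again Ltf (DESeq2 adjusted p = 0.000905) and Ngp (DESeq2 adjusted p = 0.00313). Here too DESeq2 was not rerun with a library left out, so how far these calls rest on a single library was not tested. This contrast and the one before it share the 3 control libraries, so their similar values are not independent of each other.

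For NHD13/MSI2 over NHD13, which compares MSI2 on the NHD13 background, 0 of the 9 genes were called by edgeR in either direction, beside 2.58% of all genes lower and 0.584% higher. None was at an unadjusted p under 0.05 (13.9% of all genes lower and 7.84% higher), none was without overlap (16.9% lower and 13% higher), none was at an edgeR adjusted p under 0.05 (6.57% lower and 2.24% higher), and DESeq2 called none (6.58% lower and 2.89% higher). The log2 fold change was 0.43 for Ngp (95% interval −0.84 to 1.71), 0.80 for Ltf (−0.65 to 2.25), 0.22 for Camp (−1.48 to 1.92) and 0.32 for Lcn2 (−1.27 to 1.90). It was 0.034 for S100a8 (−1.82 to 1.89) and 0.0021 for S100a9 (−1.59 to 1.59). With 2 NHD13 libraries that differed 2.39-fold to 5.42-fold in the 6 abundant genes, these intervals leave room for changes of more than 2-fold in either direction for S100a8, S100a9, Camp and Lcn2. For Retnlg, Mmp8 and Mmp9 the values were −0.34, 1.90 and −0.57.

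Single libraries set much of the size of these differences. Without control replicate 2 the log2 fold changes of the 6 abundant genes in NHD13/MSI2 over control lay between −0.93 (Camp) and −1.41 (Ltf), with edgeR adjusted p-values of 0.142 to 0.465, and no gene was past an adjusted p of 0.01 with any library left out. The lowest control library was replicate 1 or 3 in each of the 6 genes. Setting control replicate 2 aside therefore could not bring about an overlap, and the lack of overlap is no check on that library. Against control replicate 2 alone, the control library that shares the Y-linked signal, the 6 values lay between −2.47 (Lcn2) and −2.62 (S100a9), with the spread of this lone library assumed to be that of the other groups and edgeR adjusted p-values of 0.0641 to 0.222. In NHD13 over control the value of Camp was −3.59 without NHD13 replicate 1 and −1.16 without NHD13 replicate 2, and those of the other 5 moved in the same direction. Ngp in NHD13/MSI2 ranged least within its group, 2.09-fold from the lowest to the highest library, against 9.12-fold for S100a8.

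Per kilobase of exon, Ngp had the highest level in control LSKs, at 567 ± 346 CPM per kb (SD, n = 3). It was followed by S100a8 (336), S100a9 (256), Camp (148), Ltf (67.1) and Lcn2 (17.7), and at a distance by Retnlg (2.55), Mmp8 (0.747) and Mmp9 (0.428). The order was the same in NHD13/MSI2, and in NHD13 it differed in Mmp8 and Mmp9 alone. The control libraries of neighbours in this order overlapped from Ngp to Ltf and again from Retnlg to Mmp9, while those of Ltf, Lcn2 and Retnlg did not. Exon lengths were taken from GENCODE M21 and need not match the annotation used for counting.

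The sum of the 9 genes differed 17.6-fold between the lowest and the highest library, and the proportions among the abundant genes were compared across that range. S100a8 made up 63.2% to 67.7% of the S100a8 and S100a9 counts in 8 libraries, from 844 counts in NHD13 replicate 2 to 13831 in control replicate 2. The ratio of Ngp to S100a8 CPM lay between 2.02 and 3.16 in these libraries, that of Camp between 0.350 and 0.493, and that of Ltf between 0.484 and 1.37, with the lowest value in NHD13 replicate 1. Replicate 4 of NHD13/MSI2 differed. There S100a8 had 190 and S100a9 194 counts, a share of 49.5% (exact 95% interval 44.4% to 54.6%), and the ratio of Ngp to S100a8 was 11.1. Lcn2 did not stand apart in that library, at a ratio of 0.263 beside 0.146 to 0.259 in the others.

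**Figure D3:**
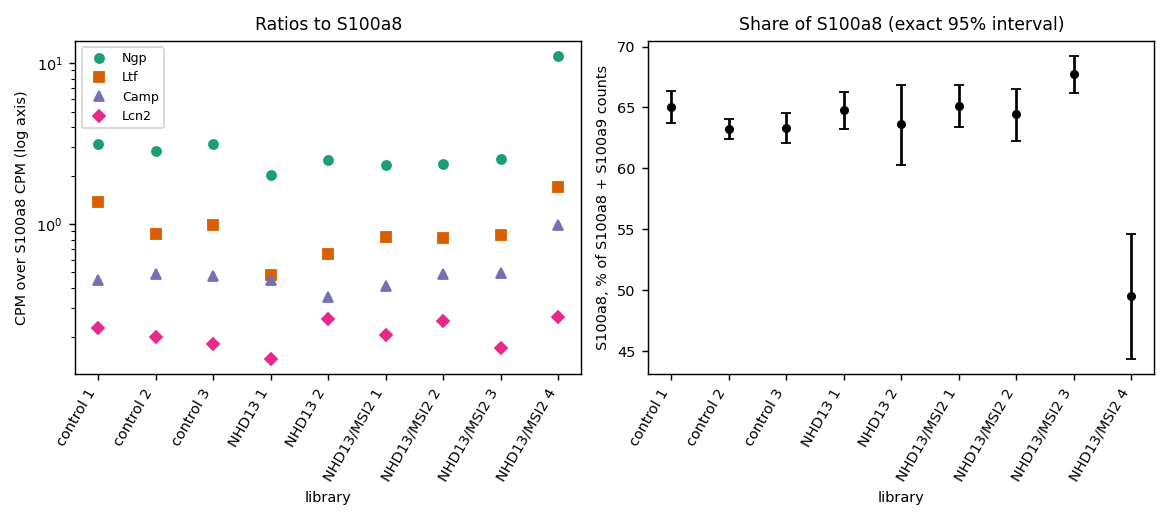
Left, the ratio of the CPM of Ngp, Ltf, Camp and Lcn2 to that of S100a8 in each of the 9 libraries on a log axis. Right, S100a8 as a percent of the S100a8 and S100a9 counts with exact 95% intervals, on an axis that does not start at 0. NHD13/MSI2 replicate 4 is at 11.1 for Ngp and at 49.5%, and the other 8 libraries are at 2.02 to 3.16 and 63.2% to 67.7%.

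Differences in that library were also set beside gene length. Over NHD13/MSI2 replicates 1 to 3, replicate 4 was lower by a median log2 difference of −0.73 in the 187 tested genes of up to 800 bases of exon and higher by 0.11 in the 5399 genes of over 5000 bases. S100a8 (694 bases), S100a9 (522 bases) and Camp (758 bases) fall in the shortest class, at differences of −2.83, −1.86 and −1.74, and Ngp (1222 bases) was at −0.63. Ltf and Lcn2 are longer, at 3450 and 2623 bases, and were at −1.81 and −2.45. Other genes of the shortest class went either way. S100a11 (511 bases) was at −2.88, while Retnlg (593 bases), S100a1 (694 bases, the length of S100a8) and S100a13 (715 bases) were at 0.27, 0.20 and 0.14. The part of transcript length in these values was not tested. In NHD13 replicate 2 over replicate 1, where S100a8 was at −2.08 and Ngp at −1.78, the shortest genes had a median difference of 0.046.

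Other genes of late neutrophils did not share one direction. Of a list of 31 such genes, 29 were in the table and 25 were tested, and in NHD13/MSI2 over control 5 rose and 1 fell at an edgeR adjusted p under 0.01, with a median log2 fold change of −0.033. Padi4, which encodes the enzyme that citrullinates histones in neutrophils, was at 111 ± 14.9 CPM (SD, n = 3) in control, 97.4 ± 1.65 CPM (SD, n = 2) in NHD13 and 305 ± 36.2 CPM (SD, n = 4) in NHD13/MSI2, and rose in NHD13/MSI2 over both control (log2 fold change 1.46, adjusted p = 0.000287) and NHD13 (1.65, adjusted p = 0.00132). Cxcr2, a chemokine receptor that draws mature neutrophils out of the marrow, was at 3.03 to 4.84 CPM in control and at 34.5 to 62.5 CPM in NHD13/MSI2 and rose over control by 3.69 on the log2 scale (adjusted p = 0.000466). Stfa1 and BC100530, stefin genes with near-identical copies so that their counts are uncertain, were at 2 or fewer counts in every control library and at 9 to 67 and 5 to 64 counts in NHD13/MSI2. Mmp25, a membrane-bound metalloproteinase of neutrophils, fell from 13 to 62 counts per control library to 1 or fewer in NHD13/MSI2. In NHD13/MSI2 over NHD13 the list had 1 gene higher and none lower, and in NHD13 over control none of the 25 was called by edgeR, with 10 at an unadjusted p under 0.05 and 1 higher and 1 lower by DESeq2.

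Chil3, which encodes the chitinase-like protein Ym1, showed values like those of the 6 abundant genes among the 9 without passing the threshold in edgeR. It was at 80.5, 203 and 82.3 CPM in control, 52.9 and 18.1 CPM in NHD13, and 48.9, 34.0, 44.3 and 14.2 CPM in NHD13/MSI2, with a log2 fold change over control of −1.79 (edgeR adjusted p = 0.0352) in NHD13/MSI2. It was singled out after its values were seen, and it was not alone. Of the 25 other late genes tested, 8 were lower and 8 higher without overlap in NHD13/MSI2 over control, beside 20.4% and 15.3% of all genes. In NHD13 over control 10 were lower and 3 higher, beside 18.5% and 18.9% of all genes. Fcnb and Wfdc21 were among those lower in both.

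Primary granule genes precede the 9 genes in maturation. All 10 listed were tested, and 3 rose and 1 fell in NHD13/MSI2 over control, with a median log2 fold change of 0.93. Mpo, myeloperoxidase, was at 1549 ± 335 CPM (SD, n = 3) in control, 3383 ± 600 CPM (SD, n = 2) in NHD13 and 10791 ± 2989 CPM (SD, n = 4) in NHD13/MSI2. It rose in NHD13/MSI2 over control (log2 fold change 2.80, standard error 0.29, adjusted p = 0.000254) and was at 1.67 over NHD13 (adjusted p = 0.0127). Prss57, a serine protease, rose over control in NHD13/MSI2 by 2.41 (adjusted p = 0.000261) and in NHD13 by 1.98 (adjusted p = 0.0054) on the log2 scale. Bpi, which encodes a protein that binds bacterial lipopolysaccharide, had 8 to 25 counts in NHD13/MSI2 and at most 1 in control. Cst7, a cysteine protease inhibitor, fell in NHD13/MSI2 from 23.8 CPM in control and 48.2 CPM in NHD13 to 6.22 CPM, with edgeR adjusted p-values of 0.0064 and 0.00368. In NHD13/MSI2 over NHD13 edgeR called 0 of the 10 higher and 1 lower, with 5 at an unadjusted p under 0.05, and DESeq2 called 2 higher and 1 lower.

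**Figure D4:**
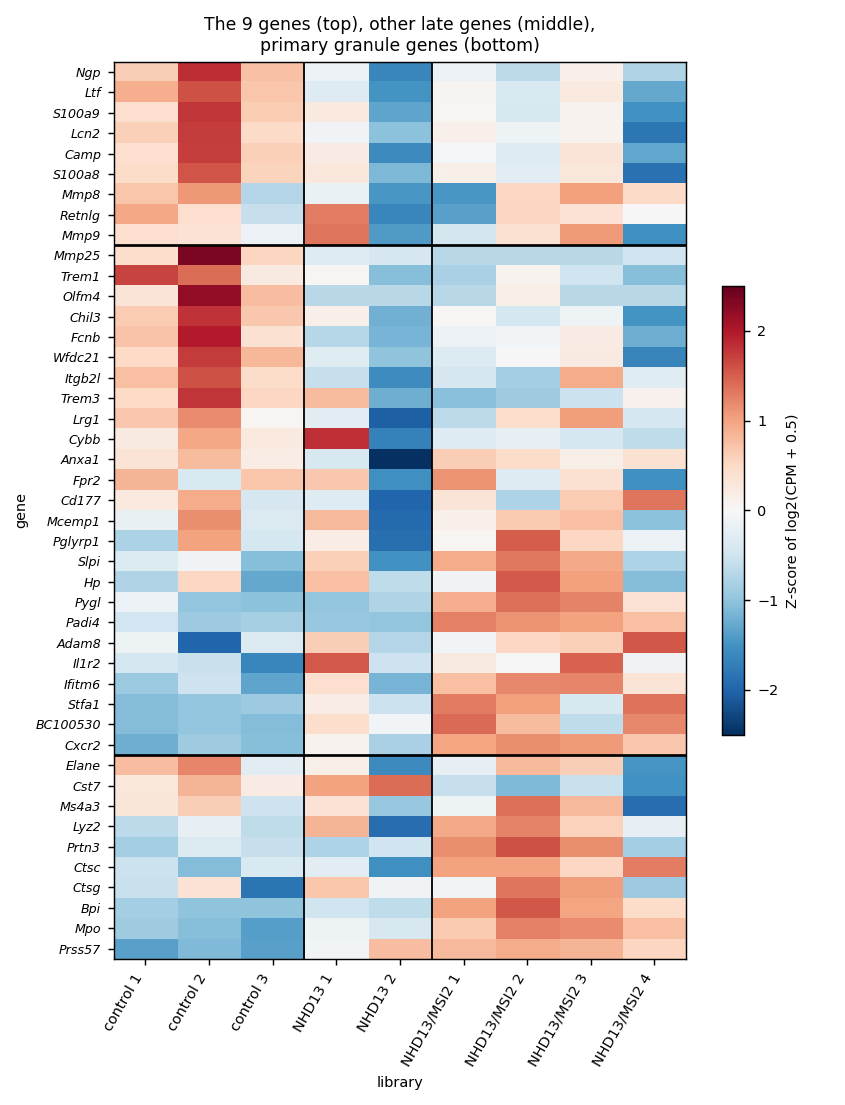
Z-scores (colour) of log2(CPM + 0.5) over the 9 libraries (columns, black lines between groups) for the 9 genes, the 25 other late genes and the 10 primary granule genes that were tested (rows). Control replicate 2 is reddest for the secondary granule genes and alarmins at the top, and Mpo, Prss57, Padi4 and Cxcr2 are redder in NHD13/MSI2 than in control.

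Factors that act on granule genes were examined next. Of 14 regulators, 13 were tested, and 3 rose and none fell in NHD13/MSI2 over control. Cebpa, the C/EBP factor of early granulocyte commitment, went from 3.59 ± 0.937 CPM (SD, n = 3) in control to 16.2 ± 4.04 CPM (SD, n = 4), or 2.17 on the log2 scale (standard error 0.31, edgeR adjusted p = 0.00136). Runx1, a factor of blood stem and myeloid cells, rose by 1.17 (adjusted p = 0.00169) and Csf2rb, a receptor subunit for GM-CSF, by 1.86 (adjusted p = 0.00568) on the log2 scale. Csf3r, the receptor of G-CSF, rose in NHD13/MSI2 over NHD13 by 1.43 (adjusted p = 0.00336). Cebpe, the factor of the secondary granule stage, was at 0.779 to 5.24 CPM in all libraries and at a log2 fold change of 0.17 in NHD13/MSI2 over control (edgeR adjusted p = 0.895).

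Receptors and inhibitors of the products of the 9 genes were tested for 14 of 18, and 2 rose and 1 fell in each of the contrasts of NHD13/MSI2. Tlr4, a receptor of calprotectin, fell in NHD13/MSI2 over control from 42.5 ± 7.04 CPM (SD, n = 3) to 9.02 ± 3.34 CPM (SD, n = 4), at −2.23 on the log2 scale (standard error 0.30, edgeR adjusted p = 0.00101). P2rx7, at which cathelicidin is known to act, rose over control by 2.67 and over NHD13 by 2.79 on the log2 scale (adjusted p = 0.000233 and 0.00158). Itgam, the CD11b chain of an integrin of neutrophils and monocytes, rose over control by 3.20 and over NHD13 by 2.07 (adjusted p = 7.53e-05 and 0.00351). Lrp1, a scavenger receptor that takes up lactoferrin and Mmp9, fell in NHD13/MSI2 over NHD13 from 20.1 to 1.19 CPM (log2 fold change −4.07, adjusted p = 0.00252).

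Relatives of the 9 genes were examined by family. None of 6 tested S100 genes was called by edgeR or DESeq2 in any contrast, and at an unadjusted p under 0.05 in edgeR there was 1 in each contrast with control and 2 in NHD13/MSI2 over NHD13. S100a10 was at 63.9 to 92.1 CPM in control and S100a11 at 59.8 to 70.1 CPM. Of 9 other matrix metalloproteinase genes tested, 2 rose and 4 fell in NHD13/MSI2 over control. Mmp11, known as stromelysin 3, rose from 6.59 ± 2.14 CPM (SD, n = 3) to 115 ± 38.1 CPM (SD, n = 4), or 4.12 on the log2 scale (edgeR adjusted p = 0.000185). Mmp2, the gelatinase related to Mmp9, had 162 to 256 counts in control and 0 in each NHD13/MSI2 library (adjusted p = 0.000737), which allows up to 3 counts per library.

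Markers of other cell types moved with the groups. Summed over 11 monocyte and macrophage markers, the level was 84.0 to 142 CPM in control, 2673 and 3293 CPM in NHD13 and 6274 to 8598 CPM in NHD13/MSI2, of which F13a1, the gene of factor XIII subunit A, was most. F13a1, Csf1r and Cd68 rose over control in both groups (3 of 11), and C1qa was at 0 in NHD13/MSI2 replicate 4. The 10 B cell markers summed to 49.7 to 68.9, 127 to 147 and 282 to 473 CPM in the 3 groups. Cd79a and Cd79b together made up most of the sum in every library. Of the 10, 4 were called higher in NHD13/MSI2 over control (Cd79a, Cd79b, Pax5 and Vpreb3) and none lower. In that contrast 4 others had negative log2 fold changes, among them Igll1 (−3.41) and Ebf1 (−2.53). The 8 LSK markers summed to 5192 to 6213 CPM in control, 2540 and 3699 CPM in NHD13 and 2033 to 2797 CPM in NHD13/MSI2, with 6 of 8 lower in NHD13/MSI2 over control. Ly6a went the other way, from a mean of 85.8 CPM in control to 260 CPM in NHD13/MSI2. Its log2 fold change was 1.60 (edgeR adjusted p = 0.0167), and the libraries of the 2 groups did not overlap. Of the 10 T and NK cell markers, which summed to 41.8 to 53.0 CPM in control, 217 and 223 CPM in NHD13 and 60.4 to 99.4 CPM in NHD13/MSI2, Lck rose in NHD13 and Klrb1c in NHD13/MSI2 over control, while Cd3e was at 0 in 7 libraries. The 10 markers of eosinophils, basophils and mast cells summed to 108 to 184 CPM in control, 117 and 157 CPM in NHD13 and 79.3 to 111 CPM in NHD13/MSI2. Gata2 made up most of this sum in every library, at 71.7 to 146 CPM. The median log2 fold change of the 8 tested was −1.48 in NHD13 over control, with none called by edgeR. In NHD13/MSI2 over control 2 of the 8 (Cpa3 and Fcer1a) were lower, and Fcer1a had no counts outside the control libraries. The 10 erythroid markers summed to 88.1 to 146, 152 to 163 and 155 to 234 CPM, with Tfrc among those called, higher in NHD13/MSI2 over control, and Hba-a1 was listed at 0 in every library. The 8 megakaryocyte markers summed to 500 to 866 CPM in control, 268 and 1324 CPM in NHD13 and 44.8 to 74.2 CPM in NHD13/MSI2, where Itga2b was among those that fell over control. The part of the cell makeup in the levels of the 9 genes was not tested.

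The genes whose pattern over the 9 libraries was nearest to that of the 9 genes were named by the mean absolute difference between Z-scores of log2 CPM. Among the 5 nearest were Bcl6 (0.262), Il4 (0.269), Hcfc1r1 (0.277) and Abca13 (0.282), where the median of all 13355 tested genes was 0.966. Among the 9 genes themselves the difference from their own mean ran from 0.212 for Camp to 0.666 for Retnlg. Il4 was at 2.14 CPM or less in every library. Hcfc1r1 was at 22.8 to 27.0 CPM in control and at 23.3 CPM or less in the others, so a near pattern does not mean a difference of like size.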

How the data were processed

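LSK RNA of 9 libraries was measured by RNA-seq, and the deposited values are whole-number read counts per gene symbol, which the authors did not normalize or pool. The submitters' processing notes name STAR, HTSeq, DESeq and the build mm9, and the study's methods name DESeq with Benjamini-Hochberg correction. Whether counting used strand is not given in the sources used here, so reads of overlapping genes cannot be told apart. After the names had been moved, 13 rows among the March genes (0.0253% to 0.0323% of a library) stayed unnamed and were left out.

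Samples were grouped by their titles. Genes with low counts were removed with filterByExpr, TMM factors were computed, and the quasi-likelihood model of edgeR 4.0.16 (R 4.3.3) was fitted to all 9 libraries, with 6 residual and 3.38 prior degrees of freedom, so that the spread of a gene was shared by the 3 groups. DESeq2 1.42.0 was an alternative. The threshold was an adjusted p under 0.01. CPM are TMM-normalized, Z-scores used log2 CPM with a prior count of 2, and shares have exact (Clopper-Pearson) 95% intervals from SciPy 1.17.1. Both tests were tested on simulated counts.

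Gene positions and exon lengths came from GENCODE M21 (GRCm38) and promoter windows from RefSeq (GRCm38.p6), not from the build of the counts. The genes named are the 9 genes, up to 4 genes with the lowest p among those called in each other list, or 2 genes of highest level where none was called, the defining markers of each cell type and the 5 genes of nearest pattern, of which some are not reported here. The 9 genes and all lists were chosen with earlier results of these data known. Alternatives were DESeq2, RLE or no TMM factors, no filter or a minimum mean of 50 counts, a threshold of 0.05, robust estimation, a block for the replicate number, the compared groups alone, the names as deposited and each library left out in turn. Control replicate 2 as the lone control was added after the data had been seen.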

Additional observations from a re-analysis of the deposited data

Results flagged for a closer look

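Replicate 4 of NHD13/MSI2 lay far from the other 3 libraries of its group in the ratio of 3 genes to S100a8. The gap from this library to the next, as a share of the whole range of the group, was 0.976 for Ngp over S100a8 (11.1 against 2.32 to 2.54), 0.960 for Ltf over S100a8 (1.71 against 0.824 to 0.860) and 0.858 for Camp over S100a8 (0.989 against 0.411 to 0.493), beyond Dixon's 95% critical value for 4 samples. Chance passes this value in about 1 of 20 groups for a single quantity. The same rule was applied to the CPM of each of the 9 genes, to the share of S100a8 in the S100a8 and S100a9 counts and to Lcn2 over S100a8. None of these passed it, and with many quantities screened a pass by chance somewhere is more likely than that rate. The 3 ratios share the 190 counts of S100a8 in that library as their denominator and are 1 observation rather than 3. Beside them, short genes as a class were lower in replicate 4 by a median log2 difference of −0.73, with S100a1, as long as S100a8, at 0.20, and the part of transcript length was not tested.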

How the results depend on the processing

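No call was made for the 9 genes, and leaving out any library gave none. In NHD13/MSI2 over control, 2 of the 9 were past the threshold with DESeq2 and 2 with an adjusted p under 0.05 (Ltf and Ngp each time), and 1 with the names as deposited (the row then named Ngp). In NHD13 over control it was 2 with DESeq2. S100a9, Retnlg, Mmp8 and Mmp9 gave no value with the names as deposited. Of all genes, 423, 1474 and 138 were called in NHD13/MSI2 over NHD13, in NHD13/MSI2 over control and in NHD13 over control. With DESeq2 these counts were 1292, 2590 and 602, and with an adjusted p under 0.05 they were 1177, 2745 and 386. With only the groups compared they were 30 in NHD13/MSI2 over NHD13 and 83 in NHD13 over control, and with control replicate 2 as the lone control they were 38, 95 and 7. With 1 library left out they ran from 128 (without NHD13 replicate 1) to 646 (without NHD13/MSI2 replicate 4), from 647 (without control replicate 3) to 2066 (without NHD13/MSI2 replicate 4) and from 38 (without control replicate 3) to 251 (without NHD13/MSI2 replicate 4). Without TMM factors the 1486 calls in NHD13/MSI2 over control were split into 401 higher and 1085 lower, against 599 and 875 with them.

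Log2 fold changes of single genes changed sign as follows, none past a threshold, and the cause was not tested. In NHD13/MSI2 over NHD13 S100a8 was at −0.12 and S100a9 at −0.16 without TMM factors, S100a9 at −0.0015 with only the groups compared, and Ngp at −1.05 with the names as deposited. With 1 library left out the range was −0.62 to 1.45 for S100a8, −0.64 to 1.36 for S100a9, −0.50 to 1.92 for Camp, −0.16 to 1.61 for Ngp, −0.14 to 1.10 for Lcn2, −1.19 to 2.56 for Retnlg and −1.51 to 4.74 for Mmp9, with the lowest value in each without NHD13 replicate 2 and the highest without NHD13 replicate 1. In NHD13/MSI2 over control S100a8 was at 0.067 with the names as deposited, and the range was −0.71 to 0.034 for Retnlg, −0.69 to 0.36 for Mmp8 and −0.89 to 0.36 for Mmp9. In NHD13 over control it was −2.90 to 0.85 for Retnlg and −4.78 to 1.48 for Mmp9. A group left with 1 library was assumed to vary like the others.

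Same-numbered libraries correlated in their deviations from the group means at −0.0716 to 0.194. Differently numbered libraries were not compared, so these values do not decide whether the numbers pair the libraries. With the replicate block the calls among all genes were 203, 1407 and 101, and 0 of the 9 genes were called in any contrast. Under the block Retnlg was at 0.27 and Mmp9 at 0.26 in NHD13/MSI2 over NHD13, and Mmp9 at 0.34 in NHD13/MSI2 over control.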
